A study of Rattus norvegicus with 6 samples.

Results

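Circular RNAs (circRNAs) are closed RNA molecules in which a downstream end is joined to an upstream end, and the deposited table gave each one a start, an end and a list of gene names on the rat genome build Rnor_6.0. The circRNAs described here carried only multi-copy names. A name was multi-copy where it stood on circRNAs of more than 1 chromosome, or on circRNAs of 1 chromosome whose starts lay more than 5 Mb apart. A circRNA was a member where every name in its list was of this kind. The rule used names and positions and no counts. It found 419 members among 4143 circRNAs. Of the rest, 3489 carried 1 single-copy host name alone, 214 carried 1 host name together with multi-copy names, 15 carried several host names and 6 carried none.

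The cells were dental follicle cells of Sprague-Dawley rats aged 5 to 7 days, taken from the tooth germs of mandibular molars. The control group was kept for 28 days in medium with 5% serum, and the induction group for 28 days in the same medium with 1% of an osteogenic induction liquid, given as dexamethasone 0.010 mmol/L, ascorbic acid 0.028 mmol/L and β-glycerophosphate 1.000 mol/L. The labels named 3 control and 3 induction samples. The treatment protocol spoke of 3 rats and the design text of 4. DNA and linear RNA were removed in both groups before sequencing, and the table held 1 count column per group, so no value below has a replicate error and no test between the conditions was possible.

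Most of the multi-copy names belong to short noncoding RNAs whose genes are scattered through mammalian genomes in many near-identical copies, functional or degenerate. U1, U2, U4 and U6 are core RNAs of the spliceosome, and many small nucleolar RNAs guide chemical changes in ribosomal and spliceosomal RNA. The 7SK, RNase P, signal recognition particle and Y RNAs have housekeeping roles in transcription, transfer RNA processing, protein targeting and RNA surveillance. In mesenchymal cells, as in others, most described circRNAs come instead from exons of protein-coding genes joined by back-splicing. Reads from one copy of such a family may fit another copy, so which copy a count came from is uncertain for members that lie within a family's own sequence.

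The listed counts came to 137740 in control and 164746 in induction, and the totals behind the deposited TPM values to 203283 and 221596. Hosts in a list of dental follicle and mesenchymal genes held 40439 control and 50966 induction counts, from 6 of its 11 genes (Runx2, Col1a1, Col1a2, Col3a1, Aspn and Vim). Nearly all of these counts were of the collagens Col3a1 (22700 and 28461) and Col1a1 (16421 and 20349). Runx2 had 655 and 1378, Col1a2 643 and 769, Aspn 18 and 6, and Vim 2 and 3. Postn, Spon1, Thy1, Eng and Nt5e had no listed circRNA. None of 7 epithelial genes was listed. Dock8 was the only listed gene of 4 leukocyte genes (29 control and 19 induction counts), Flt1 of 4 endothelial genes (48 and 50), and Dmd of 5 muscle and nerve genes (10 and 15). In bulk RNA, fewer cells of a type and less RNA per cell cannot be told apart.

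The members carried 60 names. By their letters, 26 were box H/ACA small nucleolar RNAs, a class of which many guide pseudouridine formation. Of the box C/D class, of which many but not all guide ribose methylation, there were 8. Another 8 were U RNAs, 2 ribosomal RNAs, 2 small Cajal body RNAs (guides that act on spliceosomal RNAs), and 1 each 7SK, RNase P, signal recognition particle and Y RNA. The other names were 5 gene symbols (Ears2, Eif3h, Rpl39, Dcp2 and Ces2a), 3 uncharacterised loci, and uc_338 and pRNA. In the RefSeq gene table of assembly GRCr8, 5 of the 60 names matched by symbol and 1 by gene identifier, and 54 had no match. Ces2a, on 1 member, is listed there as a transcribed pseudogene, and the other symbols as protein-coding genes.

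A few names covered nearly the whole set. U6, the catalytic RNA of the spliceosome, was on 394 of the 419 members. SNORA17 was on 351, 7SK (which holds a transcription elongation factor inactive) on 350, and 5S_rRNA of the large ribosomal subunit on 312. U1, which recognises the 5′ splice site, was on 299, U4 on 268, U2 on 221 and U7, which acts in histone mRNA processing, on 192. Names of middle frequency were SNORA44 on 134, SNORA70 on 130, SNORA48 on 109, RNaseP_nuc on 80, Metazoa_SRP on 75 and Y_RNA on 64. The gene symbols were rare. Ears2, a mitochondrial glutamyl-tRNA synthetase, was on 18 members, Eif3h, a subunit of a translation initiation factor, on 16, Rpl39, a ribosomal protein, on 7, and Dcp2, an mRNA decapping enzyme, on 6.

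The names were spread over long distances. U6 stood on circRNAs of 21 chromosomes, and on chromosome 1 its first and last starts lay 260.21 Mb apart. Of the 60 names, 36 occurred on more than 1 chromosome and 24 on 1 chromosome only. Near the 5 Mb threshold, pRNA (6 circRNAs, starts up to 8.99 Mb apart) and SNORA5 (4 circRNAs, 12.52 Mb) were just inside. SNORA29 (4 circRNAs, 2.59 Mb) and Dmd (2 circRNAs, 1.77 Mb) were just outside.

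A member carried a median of 10 names. Only 26 members carried 1 name, 62 carried 2 to 5, 151 carried 6 to 10 and 180 carried 11 or more. The most was 22, on a pair of overlapping members on chromosome 1 (chr1:75233706-75362872 and chr1:75254068-75384017), with 15 and 9 counts in control and induction for the former and 2 and 2 for the latter. The length of a list neither rose nor fell steadily with the length of the circRNA, though spans differed between classes of list length (given below). Across the 419 members, the Spearman correlation of names with genomic span was 0.01, given as a description, since neighbouring members share sequence. Of 63 members spanning under 1000 nt, 23 carried 10 or more names.

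Examples of short members show that a short span could carry a long list. The member chr1:158339071-158339172 spanned 102 nt and carried 20 names, among them SNORA32, U6, SNORD116 and LOC100360056. A member of 91 nt on the same chromosome (chr1:221153002-221153092) carried 16 names, and a member of 183 nt on chromosome 8 (chr8:54584699-54584881) carried 15. These spans are of the size of a small nuclear or small nucleolar RNA gene, while their lists named many.

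The names kept the same order in all lists of a chromosome, and that order was not compared with positions. In 34214 ordered pairs of names within lists, none stood in the opposite order in another list of the same chromosome. For 296 combinations of a name and a chromosome with at least 3 circRNAs, the circRNAs from the first to the last bearer were examined. The intervals overlap, and the sums over them count a circRNA again for every interval that held it. Of the 6418 such entries with any multi-copy name, 6238 (97.2%) carried the name in question, and in 210 of the 296 combinations there was no gap. Of all 36885 entries counted in this way, with or without multi-copy names, 16.9% carried it. On chromosome 2, U6 was carried by 68 of the 70 circRNAs with a multi-copy name over 254.0 Mb, and by 20.2% of all 337 circRNAs there. The 419 members held 189 distinct lists by chromosome, and 98 of these lists were on 1 member. Members close together on a chromosome thus mostly carried the same names.

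**Figure D1:**
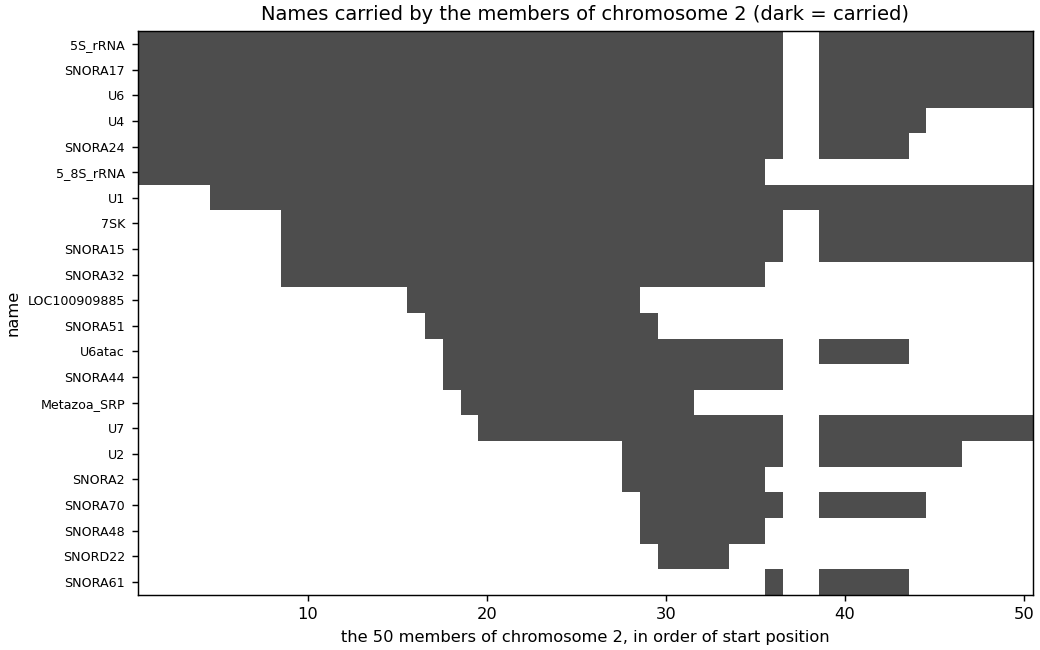
Names (rows) carried by the 50 members of chromosome 2 (columns, in order of start position, not to distance), dark where the name was carried. Each of the 22 names fills a run of neighbouring members, and the gap in most runs is the pair of short circRNAs that carried U1 alone.

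Members lay on every numbered chromosome and on X. Chromosome 2 held 50 of them, 14.7% of its 339 circRNAs, chromosome 1 held 45 (11.6% of 388) and chromosome 10 held 36 (11.6% of 310). Shares were highest on chromosome 15, with 25 of 123 circRNAs (20.3%), on X, with 12 of 62 (19.4%), and on chromosome 17, with 20 of 129 (15.5%). Chromosome 9 had the lowest share of these, with 7 of 281 circRNAs (2.49%). None of the 2 circRNAs of Y was a member.

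The members spanned more of the genome than the other circRNAs. Their median span was 16093 nt (quartiles 3008 and 60002), against 5197 nt for the 3724 others. Spans of 50000 nt or more were found for 121 members (28.9%) and for 160 others (4.30%). Spans are from start to end on the genome and include any intron, since no annotation of Rnor_6.0 was used. The largest, X:72363221-72863072, covered 499852 nt, carried 16 names and had 4 counts in each column. The smallest span was 16 nt and was shared by 3 members named Metazoa_SRP alone, on chromosomes 10, 12 and 19.

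Spans differed between members with 1 name and those with a few. The 26 members with 1 name had a median span of 100 nt, while the 62 with 2 to 5 names had a median of 50074 nt. Members with 6 to 10 names had a median of 14163 nt, and those with 11 or more 16773 nt. Both short and long spans occurred in the class with 1 name, which reached from 16 to 142758 nt.

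**Figure D2:**
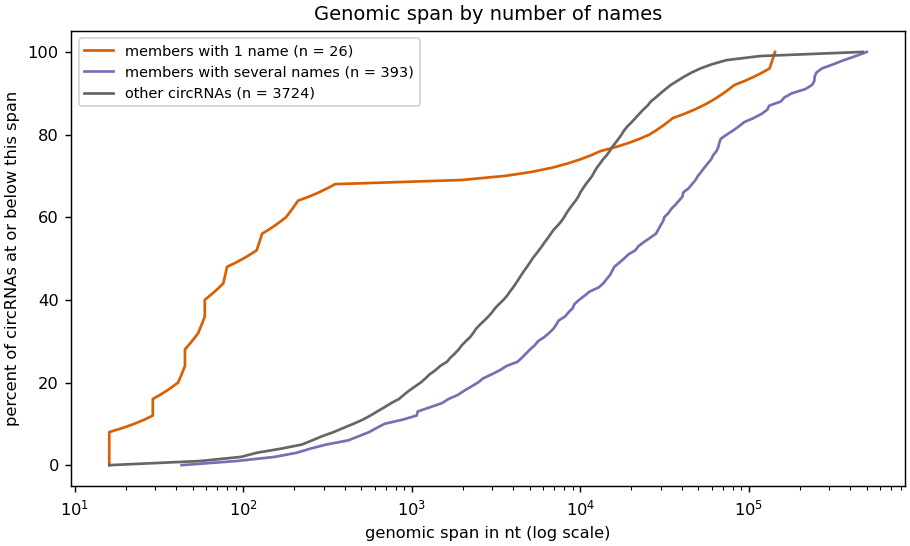
Percent of circRNAs (vertical axis) at or below a genomic span in nt (horizontal log axis) for members with 1 name, members with several names and all other circRNAs. Members with 1 name lie far to the left over most of their range, and members with several names lie to the right of the other circRNAs.

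Among the members with 1 name, the RNase P RNA, which trims the ends of transfer RNA precursors, had the most counts. Its 4 members lay within 249 nt of chromosome 15 (chr15:27739023-27739271). The member of 129 nt, chr15:27739023-27739151, had 565 control and 308 induction counts, and the level in induction was 0.500 of that in control (95% counting interval 0.434 to 0.576). It fell just short of a 2-fold difference before rounding.

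The other RNase P members overlapped it or lay beside it. A member of 211 nt with the same start had 99 and 59 counts (ratio 0.547, 0.389 to 0.762). One of 179 nt that began inside it had 94 and 54 (ratio 0.527, 0.370 to 0.744). All 3 intervals left out equal levels, whereas a member of 54 nt had 6 and 8 counts (ratio 1.22, 0.372 to 4.28). Together the 4 had 764 and 429 counts, a 1.94-fold lower level in induction (1.72 to 2.19). No circRNA with a host name overlapped the first of them, and the nearest listed were of Tmem260, ending 2403888 nt before it, and Hnrnpc, starting 756262 nt after it.

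The signal recognition particle RNA, which brings ribosomes to the endoplasmic reticulum, was the lone name of 10 members. Within 143 nt of chromosome 12 (chr12:24796355-24796497) lay 5 of them. The member of 76 nt, chr12:24796355-24796430, had 200 and 166 counts (ratio 0.761, 0.616 to 0.940), and the member of 45 nt, chr12:24796362-24796406, had 167 and 174 (ratio 0.956, 0.768 to 1.19). The 3 others there had 9 and 19, 37 and 40, and 11 and 14 counts. Unlike the RNase P locus, the sum of the 5 was near equal between the columns, with 424 and 413 counts (ratio 0.894, 0.778 to 1.03).

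The same lengths recurred at other loci. Members of 45 and 29 nt were found on both chromosome 12 and chromosome 10, and members of 16 nt on chromosomes 10, 12 and 19. At chr10:59151848-59151892, the member of 45 nt had 65 and 51 counts and was made up end to end of the spans of a 29 nt member (23 and 21 counts) and a 16 nt member (8 and 8). On chromosome 12 the 45 nt span was likewise the 16 nt and 29 nt spans end to end, in the other order along the chromosome. The 16 nt member of chromosome 19 had 10 and 10 counts. A last member, chr7:71472573-71615330, spanned 142758 nt and had 12 and 9 counts. Summed over the 10, the counts were 542 and 512 (ratio 0.867, 0.766 to 0.980).

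**Figure D3:**
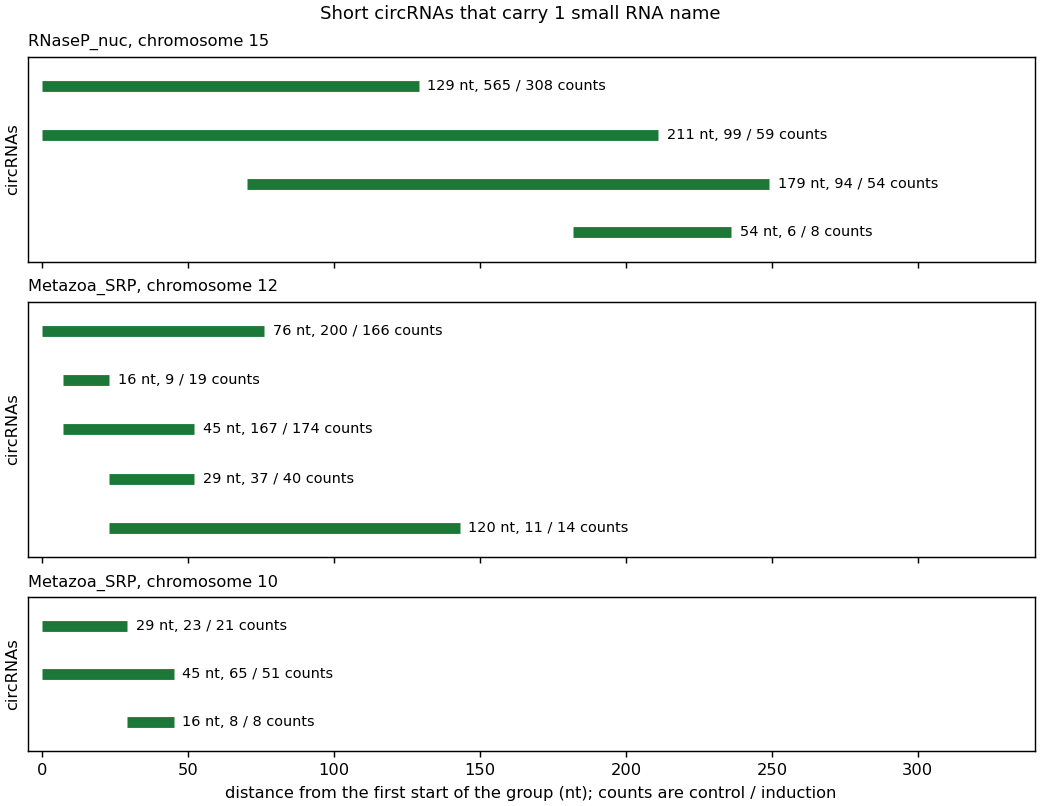
Short members that carried 1 name at 3 loci, drawn to scale in nt from the first start of each group, with length and control and induction counts beside each bar. The 3 RNase P members with the most counts have fewer counts in induction than in control, and the 45 nt spans of the signal recognition particle RNA on chromosomes 12 and 10 are each covered by a 29 nt and a 16 nt span.

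The 12 remaining members with 1 name had few counts. A 7SK member of 59 nt was found on chromosome 8 (chr8:85480342-85480400, 4 and 5 counts) and another of 59 nt on X (X:23467584-23467642, 4 and 8). Another 7SK member, chr17:90327972-90334785, spanned 6814 nt and had 15 and 14. The U1 pair on chromosome 2 spanned 80 nt (5 and 10 counts) and, inside it, 41 nt (9 and 7). Both U4 members shared the start 764340 on chromosome 11, with 9 and 12 and 8 and 6 counts. Summed over 4 members, U6 had 35 and 38 counts (ratio 0.996, 0.613 to 1.62). The SNORA17 member chr13:113735261-113748416, of 13156 nt, had 23 and 9 counts and was 2.79-fold lower in induction (1.24 to 6.84).

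Over the whole set, the members took a smaller share of the listed counts in induction. They held 11436 of the control counts, or 8.30% (exact binomial interval 8.16% to 8.45%), and 11468 of the induction counts, or 6.96% (6.84% to 7.08%). On the totals behind TPM, the summed ratio was 0.920 (0.896 to 0.944), while that of the other circRNAs was 1.11 (1.11 to 1.12). The median log2 ratio was -0.12 over the members and -0.05 over all circRNAs. These intervals cover counting error only, since duplicate reads were not separated from independent molecules and the variation between rats is not in the table. Part of the difference rested on 1 member: without the most abundant one, the summed ratio was 0.967 (0.941 to 0.993).

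A circRNA was called where the 2 levels differed at least 2-fold and the interval of the ratio left out equal levels. This held for 76 of the 419 members (18.1%), beside 18.5% of all 4143 circRNAs. Of the members, 36 were higher in induction, beside 9.22% of all circRNAs, and 40 were lower, beside 9.29%. The members' shares were thus near those of the whole table. With the totals of the listed counts as scaling, which lowers every log2 ratio by 0.13, 80 members were called, beside 19.0% of all circRNAs, and the split was 26 higher, beside 7.89%, and 54 lower, beside 11.2%. TMM factors gave 75 calls, beside 18.6% of all circRNAs, and DESeq2 size factors 80, beside 19.0%. A limit of 4-fold left 30 calls, beside 8.93%, and an assumed coefficient of variation of 40% per column left 24, beside 6.71%. The authors' deposited table gave an FDR under 0.05 for 70 members (16.7%), beside 16.9% of all circRNAs, and 54 of these differed 2-fold or more, beside 14.0%.

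Calls were fewer among members with few counts. A total under 20 counts was found for 215 members, of which 14 were called (6.51%), beside 7.46% of all circRNAs at that depth. Of the 204 members with 20 counts or more, 62 were called (30.4%), beside 30.2% of all circRNAs at that depth. Another 70 members differed 2-fold or more with an interval that held equal levels, so that a difference of that size was not detectable at their depth. In 25 the interval left out equal levels but the difference was under 2-fold. Just inside the 2-fold limit lay chr2:210781613-210822221 (16 and 35 counts, ratio 2.01), and just outside it X:119152559-119152714 (31 and 17, ratio 0.503).

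Summed ratios also differed by the number of names. The ratio was 0.679 (0.627 to 0.736) for the 26 members with 1 name, 0.809 (0.759 to 0.861) for those with 2 to 5 and 0.928 (0.886 to 0.973) for those with 6 to 10. For 11 or more names it was 1.05 (1.00 to 1.09). Without the most abundant member of each class, the ratios were 0.798 (0.722 to 0.882), 1.12 (1.04 to 1.21), 0.870 (0.828 to 0.914) and 1.04 (0.993 to 1.08). The class with 2 to 5 names thus lay on the other side of 1 without the chromosome 6 member described next, and no order by number of names remained.

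**Figure D4:**
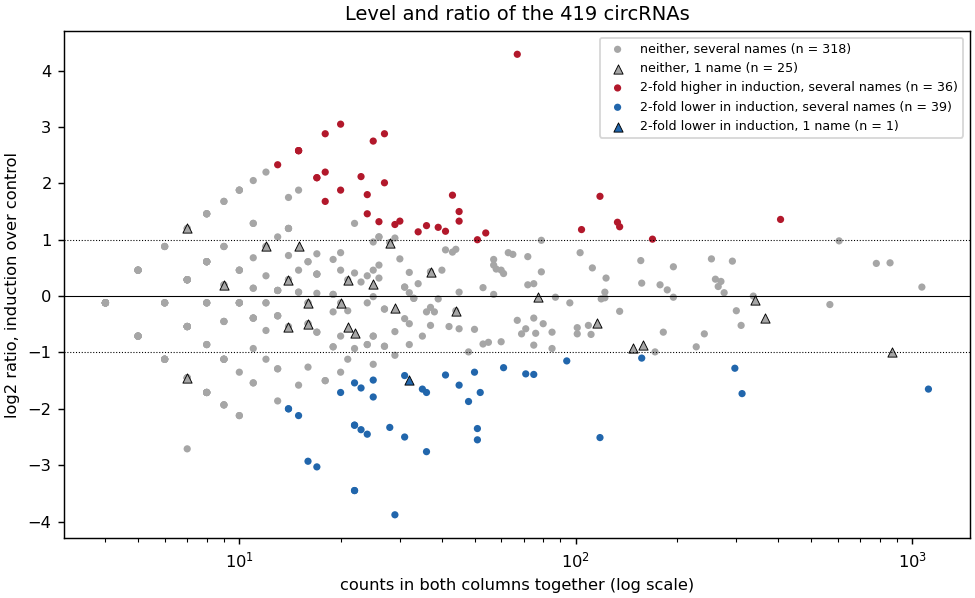
The log2 ratio of induction over control (vertical axis) against the counts in both columns together (horizontal log axis) for the 419 members, with dotted lines at 2-fold and triangles for members with 1 name. Grey points beyond the dotted lines are mostly members with few counts, and the blue point farthest right is the most abundant member, with 829 control and 288 induction counts.

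The most abundant member, chr6:4518806-4520635, spanned 1830 nt and carried U2, U6, 7SK and U1. It had 829 counts in control and 288 in induction (TPM 4080 and 1300), and was 3.14-fold lower in induction (2.74 to 3.60). No circRNA with a host name overlapped it. The nearest listed were of Slc8a1, a sodium and calcium exchanger, 203124 nt before it, and Thada, 3026415 nt after it.

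Among the 10 members with the highest mean TPM, 1 other was called, beside 27.3% of all circRNAs with at least 100 counts. This was chr4:6219912-6222632, of 2721 nt with the names 7SK and U6, which had 107 and 299 counts and was 2.56-fold higher in induction (2.05 to 3.23). The abundant members therefore included calls in opposite directions that shared the names U6 and 7SK. Close to the limit was chr2:240854068-240867796, with 192 and 414 counts (ratio 1.98, 1.66 to 2.36).

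The remaining abundant members differed less. The member chr3:81127393-81143240 had 481 and 587 counts (ratio 1.12, 0.991 to 1.27), the second highest total of the set. The member chr2:33950934-33955969 had 325 and 534 (ratio 1.51, 1.31 to 1.74), and chr1:220047471-220049075 had 298 and 484 (ratio 1.49, 1.29 to 1.73). All 3 carried 10 names or more. The member chr18:75429814-75430443, of 630 nt and with Dcp2 in its list, had 287 and 282 counts (ratio 0.901, 0.762 to 1.07). The other abundant members were the RNase P and signal recognition particle members given above.

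The largest ratios rested on few control counts. The member chr15:4933134-5145667, of 212534 nt with the names U6, 7SK, SNORA68 and SNORA70, had 3 control and 64 induction counts and was 19.6-fold higher (6.40 to 97.4). The next 4 were chr2:247636989-247654048 (2 and 18 counts, 8.26-fold), chr15:23605382-23606908 (3 and 24, 7.34-fold), chr5:103199483-103201011 (2 and 16, 7.34-fold) and chr1:62330221-62360073 (3 and 22, 6.73-fold). With 2 or 3 counts on one side, their intervals reached down to between 1.73-fold and 2.23-fold.

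In the other direction, chr14:5607718-5766248, of 158531 nt with the names U6 and 7SK, had 27 and 2 counts and was 14.7-fold lower in induction (3.70 to 128). Next came a pair on chromosome 6 with the same names and the same counts of 20 and 2, each 10.9-fold lower (2.65 to 96.2). One of them, chr6:133791092-133791177, spanned 86 nt and lay inside the other, chr6:133785728-133792067. The members chr1:47030544-47032563 (15 and 2 counts, 8.18-fold) and chr10:95065383-95074409 (14 and 2, 7.63-fold) followed.

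Members with at least 100 counts have less counting error, and they were chosen after their values were seen. The limit was on both columns together, so a member could pass it through the column where it was high. Variation between rats is not covered at any depth. Of 52 such members, 11 were called (21.2%), 6 higher and 5 lower, beside 27.3% of all circRNAs at that depth. The lower ones included chr8:54584699-54584881 with 235 and 77 counts (ratio 0.301, 0.229 to 0.390) and chr8:54582754-54584881 with 104 and 53 (ratio 0.468, 0.329 to 0.657). These share their end position, and another member with that end, chr8:54582239-54584881, had 9 and 4. The others were chr1:11971451-11971756 with 205 and 92 (ratio 0.412, 0.318 to 0.529), chr6:30550488-30589369 with 99 and 19 (ratio 0.176, 0.102 to 0.290) and the chromosome 6 member described first.

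The higher ones with at least 100 counts lay on 5 chromosomes. Besides the chromosome 4 member, chr2:224802843-224803455 had 25 and 93 counts (ratio 3.41, 2.17 to 5.54) and chr10:86222510-86227004 had 36 and 97 (ratio 2.47, 1.67 to 3.73). The member chr17:84872804-84888911 had 38 and 97 (ratio 2.34, 1.59 to 3.50). The ratios were 2.26 (1.46 to 3.58) for chr10:106673704-106699402 and 2.01 (1.44 to 2.83) for X:99728011-99758593.

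Sums over all members with a given name were near 1 for the common names and apart from it for a few rare ones. A name such as U6, on 394 of the 419 members, holds most counts of the whole set, whose ratio was 0.92. Its sum therefore had to lie near that value, and whether common and rare names differ was not tested. Sums by name share members, since a member with 10 names enters 10 of them, and none is an independent measurement. The sum for U6 had a ratio of 0.954 (0.929 to 0.981), and 1.01 (0.984 to 1.04) without the chromosome 6 member. That for 7SK was 0.958 (0.931 to 0.986), and 1.02 (0.992 to 1.05) without it, so both lay on the other side of 1 without that member. SNORA17 had 0.993 (0.964 to 1.02) and 5S_rRNA 1.01 (0.975 to 1.04).

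The lowest sums were those of SNORA8, SNORD113 and Eif3h, whose members lay wholly or mostly on 1 chromosome. SNORD113, a box C/D family that in human and mouse lies in an imprinted gene cluster, was on 24 members, 20 of them on chromosome 6. Their counts were 335 and 181 (ratio 0.496, 0.411 to 0.596), with 5 members lower, beside 9.29% of all circRNAs, and none higher, beside 9.22%. All 5 lay on chromosome 6, between the starts 21942755 and 133791092. They include the pair chr6:133785728-133792067 and chr6:133791092-133791177, which overlap at 1 locus and had 20 and 2 counts each. Without chr6:30550488-30589369, the largest, the ratio was 0.630 (0.512 to 0.772).

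Eif3h and SNORA8 gave similar values. Eif3h was on 16 members of chromosome 6, each of which also carried SNORD113, so its 270 and 146 counts (ratio 0.496, 0.403 to 0.609) are part of the same sum. SNORA8 was on 8 members of chromosome 8, with 447 and 233 counts (ratio 0.478, 0.406 to 0.561). Its largest member was chr8:54584699-54584881, and without it the ratio was 0.675 (0.545 to 0.834). The sums for SNORA2, SNORA40 and uc_338 had that same largest member, with ratios of 0.706, 0.689 and 0.726, and of 0.869, 0.848 and 0.958 without it.

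The highest sums were those of SNORA61 and SNORA68, both box H/ACA names. SNORA61 was on 9 members with 73 and 210 counts (ratio 2.64, 2.01 to 3.49), of which 5 were higher in induction, beside 9.22% of all circRNAs, and none lower, beside 9.29%. Of the 5, 3 overlap at 1 locus. Without its largest member, chr2:224802843-224803455, the ratio was 2.24 (1.59 to 3.20). The 5 higher members lay on chromosome 2. They included chr2:224794357-224803455 (5 and 19 counts) and chr2:224794357-224803008 (3 and 15), which overlap the largest, and chr2:197722898-197836197 (8 and 22) and chr2:210781613-210822221 (16 and 35), which do not. The 3 members on chromosome 8 had 8 and 8, 3 and 11, and 3 and 4 counts.

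SNORA68 was on 5 members of chromosome 15 and had 30 and 111 counts (ratio 3.39, 2.25 to 5.26). This rested on chr15:4933134-5145667, since without it the ratio was 1.60 (0.974 to 2.67). Without the largest member, 14 of the 51 sums moved to the other side of 1. The new interval held 1 for all of these except U2 (1.01 to 1.08) and pRNA (1.10 to 1.71). With all members, the interval had left out 1 for 9 of the 14. Beside U6 and 7SK, the 14 included U1 (0.937 and then 1.01), U2 (0.943 and 1.04), 5S_rRNA (1.01 and 0.999) and 5_8S_rRNA (1.11 and 0.985). They also included SNORA70 (0.988 and 1.05), SNORA73 (0.903 and 1.01) and SNORA36 (0.908 and 1.08). The others were Ears2 (1.31 and 0.948), SCARNA16 (1.20 and 0.847), Rpl39 (1.33 and 0.796), SNORD88 (1.14 and 0.937) and pRNA (0.797 and 1.37). The sum for Dcp2 stayed below 1, at 0.795 and then 0.468. For SNORD115, 5 members had a ratio of 1.33 (0.824 to 2.18), and 2.06 (1.12 to 3.98) without the largest.

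**Figure D5:**
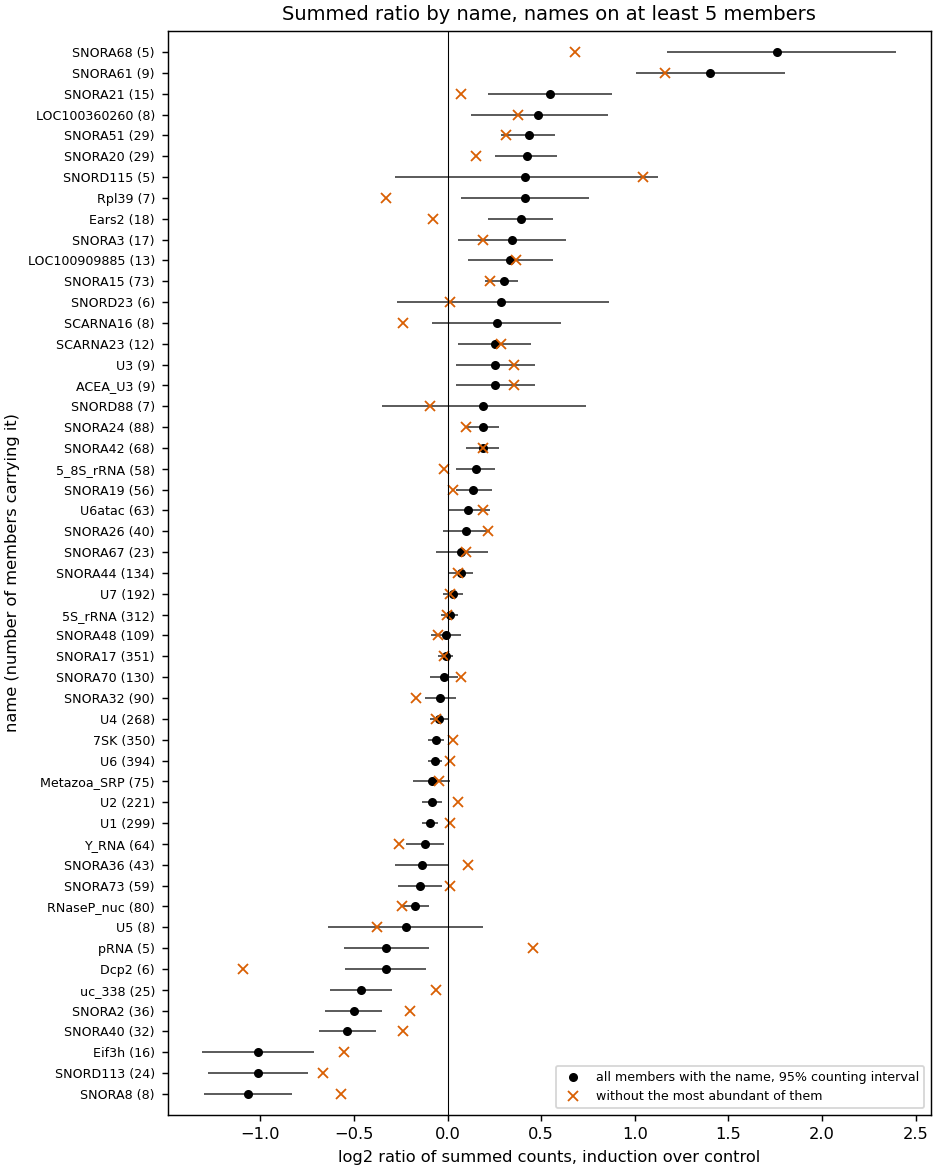
The log2 ratio of summed counts, induction over control, for each of the 51 names on at least 5 members, with 95% counting intervals (points and lines) and the value without the most abundant member (crosses). SNORA68 and SNORA61 lie highest and SNORA8, SNORD113 and Eif3h lowest, while the names on over 100 members lie close to 0.

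Members also grouped along the genome. When members that overlapped or lay within 1 Mb of each other were joined, the 419 fell into 225 groups, of which 131 held 1 member and 94 held the other 288. A start or an end was shared with another member by 163 members (a start by 100, an end by 83), so counts of neighbouring members are not separate samples of the genome. The group with the most members, 11, lay at chr1:11904246-12158667, the next, with 8, at chr1:220039308-221186464, and 4 groups held 7.

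Within the first group, neighbours went in opposite directions. The member chr1:11971451-11971756 was 2.43-fold lower (205 and 92 counts), while chr1:11971713-11971947, which overlaps its end, had 109 and 183 counts (ratio 1.54, 1.21 to 1.97). From the shared start 11910137, the member that ended at 11910678 was lower (39 and 13 counts, ratio 0.306, 0.150 to 0.585). The member from that start to 11911757 had 45 and 31 (ratio 0.632, 0.387 to 1.02), and the one to 11966518 was higher (10 and 26, ratio 2.39, 1.11 to 5.54). Summed over the group, the ratio was 0.815 (0.710 to 0.935). All 11 began their lists with SNORA32, U6, SNORA36, SNORA17, SNORA70, SNORA73 and U7.

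The other large groups were each led by 1 or 2 members. In the group at chr1:220039308-221186464, whose 8 members had identical lists of 16 names, the member chr1:220047471-220049075 held 298 of 358 control and 484 of 551 induction counts. Among the groups of 7, that at chr2:33933956-34503654 had 453 and 615 counts (ratio 1.25, 1.10 to 1.41), led by chr2:33950934-33955969. A run of 4 circRNAs in it started at 34373875, and their ratios lay between 0.367 and 0.540. Of these, only chr2:34373875-34404958 (42 and 19 counts) was called. The others had 4 and 2, 5 and 2, and 17 and 10 counts, and their intervals held equal levels. The group at chr14:43400193-43517916 had 279 and 383 counts (ratio 1.26, 1.08 to 1.47), with no member called, beside 18.5% of all circRNAs. In this group, 3 members ended at 43461320.

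The groups at chr2:78283016-79429449 and chr15:70769052-70859193 were built on common starts. In the former, 5 members started at 79322029 and reached from 90 to 107421 nt. Their counts were 8 and 2, 111 and 149, 26 and 46, 14 and 27, and 58 and 98, and the group's ratio was 1.40 (1.18 to 1.67). In the latter, 4 members started at 70790038, and the group had 73 and 71 counts (ratio 0.892, 0.634 to 1.25).

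Some members overlapped circRNAs that carried a host name. Of the 419, 75 (17.9%) overlapped a circRNA with a single-copy host, of 47 hosts, and 34 (8.11%) shared an exact start or end with one, of 24 hosts. By the rule for members, the lists of these 34 did not hold the host's name. They had 1143 and 1495 counts, and 4 were called (11.8%), beside 18.5% of all circRNAs. Adamts6 and Tdrd3 had 3 such members each, and those with 2 included Phf21a, Mllt10, Faf1, Ahnak and Zranb1.

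Those with the most counts show how the member and the named circRNA compared. The abundant member chr3:81127393-81143240 (481 and 587 counts) shared its end with a circRNA of Phf21a, a subunit of a histone demethylase complex, which had 22 and 45 counts (ratio 1.88, 1.10 to 3.28). The member chr2:240854068-240867796 (192 and 414, ratio 1.98) shared its start with 2 circRNAs of Nfkb1, a transcription factor of inflammation, which had 41 and 35 (ratio 0.783, 0.484 to 1.26) and 4 and 4. In both cases the circRNA that carried the host name had fewer counts than the one that did not.

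Elsewhere the named circRNA was the more abundant. A member from the start of a Rps6kc1 circRNA, chr13:109457218-109588736, had 42 and 45 counts (ratio 0.983), beside 107 and 188 for the named one (ratio 1.61, 1.26 to 2.06). At Zranb1, chr1:204959155-204961691 had 12 and 33 counts and was higher (ratio 2.52, 1.27 to 5.36), beside 210 and 219 (ratio 0.957, 0.788 to 1.16) for a circRNA that starts slightly later and has the same end. The 3 other called members of this kind were chr15:23605382-23606908, higher with Gmfb beside it (3 and 24, against 56 and 129, ratio 2.11), chr2:34373875-34404958, lower at Adamts6 (42 and 19, against 8 and 19), and chr3:44500847-44522988, lower at Acvr1, a receptor for bone morphogenetic proteins (35 and 15, ratio 0.393, against 64 and 48, ratio 0.688). The difference between a member's ratio and that of its neighbour was not tested.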

How the data were processed

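Per the submitters' processing notes, FastQC, BWA and the build Rnor_6.0 were used. Not given in the sources used here: versions, circRNA caller, reads counted, duplicate removal, and the way 3 libraries became 1 column. Per the file headers, the deposited table held whole-number counts, TPM values, a log2 ratio, a p-value and an FDR. The deposited TPM equalled the count over a total times 1000000 (within 0.0005). The deposited p-values stand beside 1 count column per group, and whether replicates lie behind them cannot be seen from these columns. They were used only through the authors' FDR. With pooled columns, edgeR's test across samples could not be made. Names were split on commas, and "n/a" was taken as no name. Ratios used the totals behind TPM, with exact 95% Clopper-Pearson intervals (scipy 1.17.1, Python 3.11.15) on the split of counts, no filter and no pseudocount. Alternatives used listed totals, edgeR 4.0.16 TMM factors and DESeq2 1.42.0 size factors. The call rule was tried on simulated counts with counting error only, scaled by listed totals. Variation between rats and duplicate reads were not simulated, so the trial does not cover them. Named were names on at least 5 members, the 10 most abundant members, the 5 largest ratios each way, the groups with most members (4 tied at 7), extreme spans, and members sharing an end with a host's circRNA. The members, lists and this rule were chosen with earlier results of these data known.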

Additional observations from a re-analysis of the deposited data

How the results depend on the processing

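The 76 calls became 30 with a 4-fold limit, beside 8.93% of all circRNAs. They became 24 with an assumed coefficient of variation of 40% per column, beside 6.71%. Under the other settings that kept nearly all members, they were between 54 and 80 of 418 to 422. Smaller sets gave 52 of 281 (18.5%) with names on more than 1 chromosome only, beside 18.5% of all circRNAs. Without members sharing an end with a more abundant member, 62 of 321 (19.3%) were called, beside the same share. With at least 20 counts, 62 of 204 (30.4%) were called, beside 30.2% of all circRNAs at that depth. The shares of 8.30% and 6.96% became 5.87% and 4.73% with names on more than 1 chromosome only, 7.70% and 6.79% without the most abundant member, 7.29% and 6.05% without members sharing an end with a more abundant member, and 7.53% and 6.28% with at least 20 counts, each of which counts fewer members. The summed ratio of 0.920 became 0.838 with listed totals, 0.955 with DESeq2 size factors, 0.885 with names on more than 1 chromosome only and 0.967 without the most abundant member. The median log2 ratio of -0.12 became -0.26 with listed totals and -0.13 with TMM. By kind of name, listed totals gave 0.874 for 7SK, 0.809 for RNase P, 0.870 for U RNAs, 0.839 for Y RNA, 0.912 for box H/ACA, 0.885 for gene symbols, 0.915 for ribosomal RNA and 0.860 for signal recognition particle RNA. Without the most abundant member of the kind, 7SK turned to 1.02 and U RNAs to 1.01, Y RNA became 0.834, gene symbols 0.804 and other RNA names 0.887. The remaining 40 values stayed within the interval or the 1.5-fold limit around the reported value. Of these, 7SK as a lone name went from 1.08 to 0.981 with listed totals, and box H/ACA and ribosomal RNA, both at 1.00, to 0.994 and 0.996 without their most abundant member. No paired analysis was possible because the columns name groups and not samples, so neither the replicate block nor leaving out a replicate was run. With few counts per member (median 19 in both columns), only large differences could be seen, and p-values over samples could not be had.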
